A study of Mus musculus with 4 samples.

Results

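Prss34, Mcpt8, Cpa3, Cma1 and Gzmb are 5 of the 27998 genes counted in the libraries, and they were taken by their symbols. Each codes for a protease kept in the granules of basophils, mast cells or cytotoxic lymphocytes. RNA of single LSK cells (Lin-, Sca1+, cKit+, the stem and multipotent progenitor compartment of mouse bone marrow) was counted in 4 libraries. The 2 control libraries are labelled wild-type, and by the study's methods its controls were Nup358 fl/fl mice without Cre. The 2 Nup358 knockout libraries came from Nup358 fl/fl CreERT2 mice, in which adult tamoxifen treatment lets Cre remove exon 2 of Nup358, the gene of a large nuclear pore protein. By those methods, mice of both genotypes received tamoxifen. The Cre was driven from the R26 locus in all tissues, so that the loss was not limited to blood cells, and each library pooled the marrow of several mice. Cells of 1 mouse cannot be told from those of another, and p-values measure only the spread between libraries.

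Basophils and mast cells are rare cells of allergy and of defence against parasites. Both arise from marrow progenitors under GATA2, carry the high-affinity IgE receptor and store proteases in granules on serglycin, the proteoglycan made from Srgn. Prss34 and Mcpt8 (mast cell protease 8) are the proteases by which mouse basophils are usually recognised, while Cma1 (mast cell protease 5) is a chymase-family enzyme of connective tissue mast cells. Cpa3, a carboxypeptidase, is made by mast cells and also by basophils and their progenitors, and Gzmb, granzyme B, is best known from cytotoxic T and NK cells but is also made by some mast cells.

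Of the 5 genes, 3 lie in 1 stretch of 321 kb on chromosome 14 on the minus strand (GRCm38, GENCODE M21). Cma1 is at chr14:55941451-55944675, Mcpt8 at chr14:56082166-56085273 and Gzmb at chr14:56258838-56262260, each with 5 exons. A gap of 14.6 kb separates Mcpt8 from the neutrophil protease gene Ctsg. Prss34 lies in the tryptase locus at chr17:25298394-25300165 on the plus strand with 5 exons, and Cpa3 at chr3:20215620-20242181 on the minus strand with 11 exons. The 250 bases before the RefSeq start of 4 genes are shown because these genes were found together in 2 patterns, Prss34 with Mcpt8 and Cpa3, and Cma1 with Cpa3. They are RefSeq promoters (GRCm38.p6), 5′ to 3′ on the strand of the gene, with GATAA, the core of the site that GATA factors read, in capitals on either strand (TTATC is its reverse). The RefSeq start of Mcpt8 lies inside the gene as GENCODE gives it, so the last bases of its window are within those coordinates.
Prss34 (chr17:25298144-25298393, plus strand): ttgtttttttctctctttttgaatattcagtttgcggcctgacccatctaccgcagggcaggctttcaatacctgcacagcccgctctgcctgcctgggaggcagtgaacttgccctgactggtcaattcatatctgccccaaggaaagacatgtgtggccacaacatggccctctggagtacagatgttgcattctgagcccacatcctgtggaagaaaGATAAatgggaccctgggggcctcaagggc
Mcpt8 (chr14:56085198-56085447, minus strand): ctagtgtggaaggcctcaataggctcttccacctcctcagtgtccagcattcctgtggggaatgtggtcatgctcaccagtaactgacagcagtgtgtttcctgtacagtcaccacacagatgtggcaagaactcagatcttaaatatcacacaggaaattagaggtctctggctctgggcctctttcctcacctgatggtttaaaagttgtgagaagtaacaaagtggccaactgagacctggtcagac
Cpa3 (chr3:20242182-20242431, minus strand): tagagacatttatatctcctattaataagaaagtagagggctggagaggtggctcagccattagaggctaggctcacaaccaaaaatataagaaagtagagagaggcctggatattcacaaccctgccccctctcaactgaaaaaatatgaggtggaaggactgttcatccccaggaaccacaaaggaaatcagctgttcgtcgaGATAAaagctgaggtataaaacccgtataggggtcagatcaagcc
Cma1 (chr14:55944676-55944925, minus strand): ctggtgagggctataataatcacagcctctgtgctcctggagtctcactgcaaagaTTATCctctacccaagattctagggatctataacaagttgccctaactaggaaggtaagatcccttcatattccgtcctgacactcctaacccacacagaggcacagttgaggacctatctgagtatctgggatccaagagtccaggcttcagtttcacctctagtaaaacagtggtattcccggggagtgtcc

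Matches were searched on both strands from 250 bases before to 50 after the RefSeq start of all 5 genes. GATAA began 30 bases before the start of Prss34, 45 before that of Cpa3 and 194 before that of Cma1, and it was not in the window of Mcpt8 or Gzmb. The same letters are in 25.4% of all 32851 promoters of this length, so a match is a description and not a site. TGTGGT, the letters read by RUNX factors and present in 16.8% of promoters, occurred 2 times each for Mcpt8 and Gzmb, once each for Cpa3 and Cma1 and not for Prss34. TTCNNNGAA (STAT factors, 8.30% of promoters) was found for Gzmb and GAGGAA (PU.1, 28.3%) for Mcpt8.

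The libraries held 4233 to 9198 cells each after filtering and 25035656 to 60244814 UMIs (unique molecular identifiers, 1 per captured molecule), and they differed in depth. The median cell held 5333 and 1036 UMIs in the control and 1090 and 12026 in the knockout libraries (replicates 1 and 2 in this order here and wherever values come in pairs). Of the barcode sequences, 6680 occurred in more than 1 library. A cell is called copied here when its barcode had a fuller copy elsewhere, with at least 3 times its UMIs. Copied cells were 14.9% and 82.3% of control and 66.5% and 19.2% of knockout cells, with 2.01% and 24.7% and with 8.61% and 1.61% of the UMIs. The deleted exon is not read by counts of 3′ ends, so the level of Nup358 (Ranbp2) does not check the genotype labels. The sort gene Kit stood at 73.5 to 96.4 CPM (counts per 1000000 UMIs of the same cells). Ly6a, the sort gene that codes for Sca1, stood at 135 to 308. Cd34, which was not part of the sort, stood at 228 to 307. These genes were detected in all 4 libraries.

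All 5 proteases had a higher CPM in both knockout libraries than in either control library. Both knockout libraries lay above both control libraries for 30.1% of all 13844 genes tested. Cpa3 and Cma1 rose by the quasi-likelihood test of edgeR, adjusted by the Benjamini-Hochberg method, while Prss34, Mcpt8 and Gzmb missed the threshold of 0.05. Among all genes tested, 3.0% changed, with 0.91% higher and 2.09% lower in the knockout. In such sums over a library, a difference in the number of cells and one in the RNA per cell cannot be told apart.

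Cpa3 stood at 7.49 and 9.83 CPM in control replicates 1 and 2, and at 20.9 and 22.9 in knockout replicates 1 and 2. The groups were tight, with means of 8.66 ± 1.65 and 21.9 ± 1.47 (SD, n = 2 libraries each), and did not overlap. The log2 difference was 1.32 (SE 0.171) with an adjusted p of 0.0199 by edgeR. Cma1 stood at 0.697 and 1.48 CPM in the control and at 9.44 and 6.91 in the knockout libraries, from 42, 37, 338 and 378 UMIs. The lowest knockout value was several times the highest control value, and the log2 difference was 2.98 (SE 0.362, adjusted p = 0.0161 by edgeR). Both genes passed the threshold whichever library was left out. With the 2% of cells with the most UMIs in each library left out, the log2 difference was 1.10 for Cpa3 (adjusted p = 0.0910 by edgeR) and 2.04 for Cma1 (adjusted p = 0.102), so both calls were lost. That setting lowered the number of all genes called from 415 to 53.

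Prss34 stood at 3.59 and 12.2 CPM in the control and at 24.8 and 92.1 in the knockout libraries. The knockout libraries differed from each other by far more than for Cpa3, with a mean of 58.5 ± 47.6 (SD, n = 2) against 7.90 ± 6.11 in the control. The log2 difference was 2.93 (SE 0.744), and the adjusted p was 0.0790 by edgeR. Without copied cells the control values were 2.61 and 0 and the knockout values 24.8 and 93.4, and Prss34 passed (log2 difference 5.14, adjusted p = 0.0429 by edgeR). Cpa3 (1.52, adjusted p = 0.00821) and Cma1 (4.45, adjusted p = 0.0114) passed in that fit too, in which 3.44% of genes changed and 1.37% were higher in the knockout. Control replicate 2 then held 0 UMIs of Prss34 and 1 of Cma1, so both genes met the filter on low counts only with the help of the knockout libraries. Their fitted values without copied cells are given as a description and not as a result, and that of Prss34 is no bound. By leaving out 1 library of the full data, Prss34 passed without control replicate 2 (4.02, adjusted p = 0.00169), without knockout replicate 1 (3.56, adjusted p = 4.0e-09) and without knockout replicate 2 (1.65, adjusted p = 0.00871). It missed without control replicate 1 (2.22, adjusted p = 0.0716) and by DESeq2 (2.85, adjusted p = 0.127).

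Mcpt8 stood at 16.1 and 14.4 CPM in the control and at 20.5 and 39.6 in the knockout libraries. The log2 difference of 0.95 (SE 0.286, adjusted p = 0.116 by edgeR) fell to 0.39 without knockout replicate 2. It passed without knockout replicate 1 (1.34, adjusted p = 8.5e-05) and by DESeq2 (0.95, adjusted p = 0.00748). Gzmb was the least abundant member, with 46, 4, 108 and 81 UMIs, or 0.764 and 0.160 CPM in the control and 3.01 and 1.48 in the knockout. Its log2 difference was 2.04 (SE 0.591, adjusted p = 0.106 by edgeR). It passed by DESeq2 (2.16, adjusted p = 0.0147), and the difference ran from 1.503 without knockout replicate 1 to 3.71 without control replicate 1. With 4 UMIs in control replicate 2, Gzmb met the filter on low counts only with the help of the knockout libraries. Its fitted values over all cells, with or without a block, are given as a description and not as a result. With the replicate number as a block all 5 members passed, in a fit where 980 of 13844 genes changed and 381 were higher in the knockout. The log2 differences were 2.82 for Prss34, 0.86 for Mcpt8, 1.32 for Cpa3, 2.99 for Cma1 and 2.31 for Gzmb, but nothing in the labels pairs the libraries. With library depth as a block instead, Cpa3 (1.33, adjusted p = 0.0192 by edgeR) and Cma1 (2.97, adjusted p = 0.00765) passed. Prss34 (2.82, adjusted p = 0.105), Mcpt8 (0.89, adjusted p = 0.0607) and Gzmb (2.02, adjusted p = 0.117) missed the threshold there. In that fit 705 of 13844 genes changed and 232 were higher in the knockout.

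**Figure D1:**
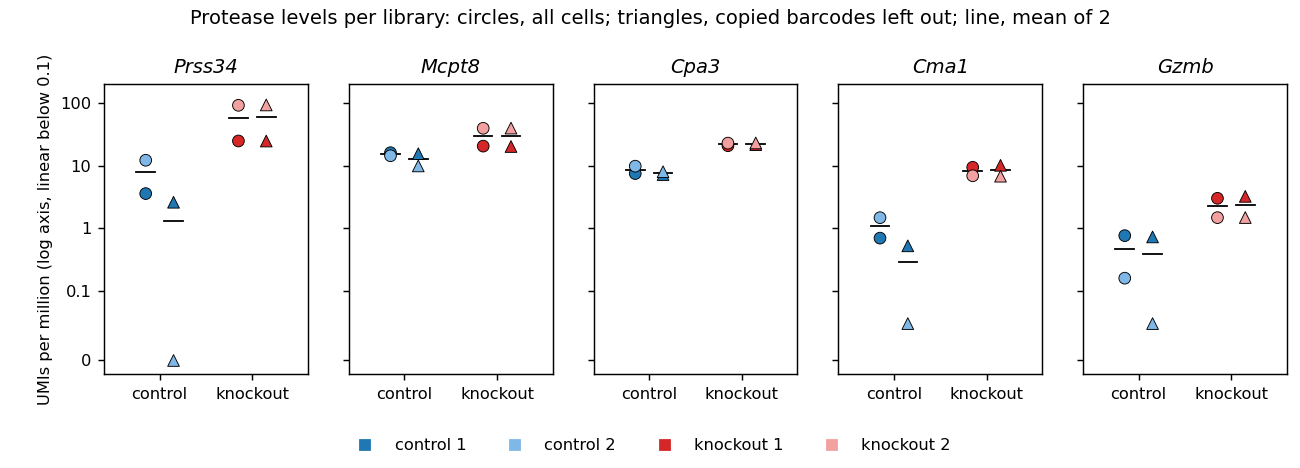
CPM of the library (log axis, linear below 0.1) for the 5 proteases in the 2 control and 2 knockout libraries; circles count all cells, triangles leave out copied cells and lines mark the mean of 2 libraries. The knockout points lie above the control points in every panel, and control replicate 2 drops to 0 for Prss34 once copied cells are left out.

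The copied cells bore most on Prss34. In control replicate 2, all 18 cells with a Prss34 UMI, with 306 UMIs in all, were copied, and 17 of them had their fullest copy in a knockout library. In control replicate 1, 10 of 12 positive cells were copied, each with its fullest copy in a knockout library, and they held 62 of the 216 UMIs. The other 154 UMIs lay in 2 cells. For Cma1, 36 of the 37 UMIs in control replicate 2 were in copied cells. Cpa3 was touched less, with 38.6% of its UMIs in copied cells in control replicate 2 and 0.956% to 5.54% in the other libraries, and Mcpt8 had 48.2% there and 0.877% to 9.92% in the others.

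**Figure D2:**
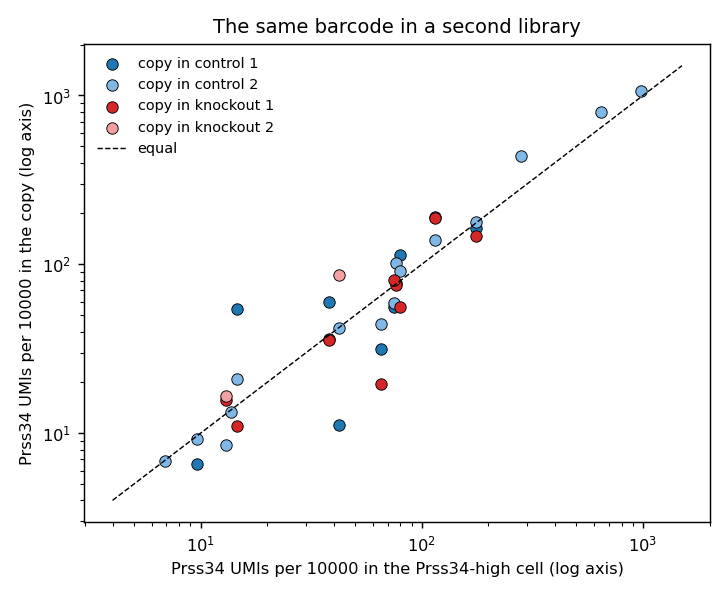
Prss34 UMIs per 10000 UMIs of the cell for Prss34-rich cells (x, log axis) and for the same barcode in another library (y, log axis), coloured by the library of the copy. Points follow the line of equal values: a cell with 983 per 10000 in knockout replicate 2 has a copy with 1060 per 10000 in control replicate 2.

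Of the 22 cells that held 10 or more Prss34 UMIs once copied cells were left out, 16 had a copy in another library. There were 40 such copies, 37 with a Prss34 UMI and 28 in a library of the other genotype. One cell of knockout replicate 2 held 1095 Prss34 UMIs of 11145, and its copy in control replicate 2 held 74 of 698. The per-cell values that follow leave copied cells out, which kept 14041 of 24973 cells, and only 1200 of them were from control replicate 2.

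Prss34 and Cma1 were each carried by very few cells. Of 5995 Prss34 UMIs, 99.5% lay in the 22 cells with 10 or more, and of 730 Cma1 UMIs, 99.5% lay in 10 cells. Both levels were cut off sharply, with no cell between 7 and 18 Prss34 UMIs and none between 1 and 15 Cma1 UMIs. With 20 UMIs in place of 10, the numbers were 21 and 8 cells. Mcpt8, Cpa3 and Gzmb were spread more widely, and cells with 10 or more UMIs held 57.1% of Cpa3 and 64.0% of Mcpt8 UMIs, with Gzmb between them. A single UMI was all that was found in 73.1% of the 1047 Mcpt8-positive and 64.5% of the 693 Cpa3-positive cells.

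Prss34-rich cells were counted 2 and 0 times in control replicates 1 and 2, and 3 and 17 times in knockout replicates 1 and 2. As a share of cells this was 0.0255% of control replicate 1 (95% exact binomial interval 0.00309 to 0.0922%), 0.189% of knockout replicate 1 (0.0390 to 0.551%) and 0.497% of knockout replicate 2 (0.290 to 0.794%). The 0 of 1200 cells in control replicate 2 allows a share of up to 0.25%, which lies above the share in knockout replicate 1, so these libraries were not told apart at this depth. Pooled by genotype, the rate was 2.21 per 10000 control and 39.9 per 10000 knockout cells, and most of the knockout cells came from replicate 2. Cma1-rich cells were counted 2, 0, 3 and 5 times, or 2.21 per 10000 control and 16.0 per 10000 knockout cells.

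Every one of the 22 Prss34-rich cells also held at least 10 Mcpt8 UMIs and at least 6 Cpa3 UMIs. Prss34 ranged from 18 to 1095 UMIs a cell with a median of 190.5, Mcpt8 from 10 to 278 with a median of 96, and Cpa3 from 6 to 83 with a median of 28.5. Cma1 and Gzmb were found in only 1 of the 22. The IgE receptor genes Fcer1a (709 CPM in these cells) and Ms4a2 (402) were found in all 22, as were Hdc, which makes histamine, and Gata2. Cyp11a1 and Csrp3 were found in 20 and Cd200r3 in 15, while the mast cell genes Tpsb2, Tpsab1 and Mcpt4 were at 0. Markers of other cells were not all absent. Of 9 neutrophil genes, Ctsg (2042 CPM against 690 in all cells outside both rich sets), Ms4a3 (476 against 208), Cebpa (104 against 29.5) and Anxa3 (87.4 against 49.7) stood higher in these cells. Mpo, found in 21 of the 22, stood at 1471 against 1493, Elane at 154 against 799 and Prtn3 at 471 against 1743, and Cebpe was at 0. Of 7 T and NK cell genes, Nkg7 was found in 19 cells at 636 CPM against 237, and the other 6, Cd3e among them, were at 0. Of 7 eosinophil genes, Epx had 8 UMIs in 6 cells and Siglecf 2 UMIs, and the rest, Prg2 among them, were at 0. Of the lymphoid genes, 36 Cd79a and 54 Igll1 UMIs were each held by 1 cell. Dntt had 33 UMIs in 6 cells (61.4 CPM against 131) and Vpreb1 had 35 in 2 cells (65.1 against 31.0). The other listed lymphoid genes were found in at most 1 cell.

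Prss34-rich cells were not alike in depth, in the sort genes Kit and Ly6a or in Cd34. In the 9 with under 12000 UMIs (1296 to 11145), Prss34 made up 257 to 986 per 10000 UMIs with a median of 643. Of these 9 cells, Kit was found in 2 with 1 UMI each and Ly6a and Cd34 in none, while Cd200r3 was found in 8 at 906 CPM. In the 13 cells with 13149 to 68801 UMIs, Prss34 made up 6.88 to 176 per 10000 with a median of 42.2. Kit was found in 10 of those 13, Ly6a in 10 and Cd34 in all 13, and Cd200r3 stood at 37.3 CPM. The split was chosen after the values were seen. Whether a barcode with many UMIs held more than 1 cell was not tested.

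The 10 Cma1-rich cells carried another set of the members. Cma1 ranged from 15 to 162 UMIs with a median of 63.5, and Cpa3 was found in all 10 (3 to 94, median 58). Gzmb was found in 8 of the 10 at 482 CPM, against 0.708 in all cells outside both sets. Mcpt8 was found in 7 with a median of 4 UMIs, and Prss34 in 2. Il1rl1, the receptor for IL-33, stood at 266 CPM in 7 cells and Kit at 321 in 9. Tpsb2, a mast cell tryptase, had 27 UMIs in 4 cells and Mcpt4, a mast cell chymase, had 11 UMIs in 2. Outside both sets, Tpsb2 and Mcpt4 were at 0 in all other 14010 cells. Markers named above for the Prss34-rich cells were found in the Cma1-rich cells too. Fcer1a (182 CPM) and Ms4a2 (88.8) were in 8 of the 10, and Hdc (258), Cyp11a1 (114) and Gata2 (271) in 9. Cd200r3 was in 5 and Csrp3 in 3. Of the other listed basophil and mast cell markers, Tpsab1 and Mrgprb2 were at 0 in the Cma1-rich cells too, and Tph1 had 1 UMI. Of the 9 neutrophil genes, only Ctsg stood higher than in cells outside both sets (875 against 690 CPM). The rest stood lower, with Mpo at 892 against 1493 and Prtn3 at 554 against 1743.

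**Figure D3:**
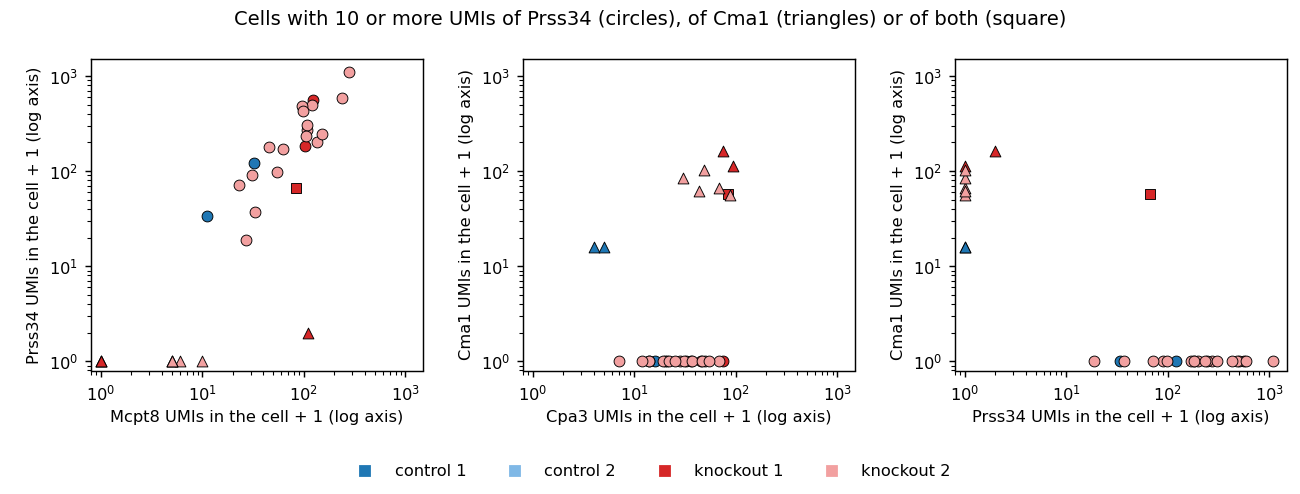
UMIs per cell plus 1 (log axes) of Prss34 against Mcpt8, Cma1 against Cpa3 and Cma1 against Prss34 in cells with 10 or more UMIs of Prss34 (circles), Cma1 (triangles) or both (square), coloured by library. Prss34-rich cells all hold Mcpt8 and lie on the Cma1 floor, and 1 cell is rich in both.

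The cell rich in both was from knockout replicate 1 and held 68801 UMIs, the most of the Prss34-rich cells, with 66 of Prss34, 83 of Mcpt8, 83 of Cpa3, 57 of Cma1 and 6 of Gzmb. All 5 members were found together in 2 cells, this one and another of the same library with 162 Cma1 and 1 Prss34 UMIs. To compare detection at 1 depth, each cell was thinned to 1000 UMIs, copied cells included, which left out 1071 and 3238 control and 2191 and 591 knockout cells that were shallower. Of 43 thinned cells with Prss34, 33 had Mcpt8 (76.7%, 95% exact interval 61.4 to 88.2%), against 0.959% of cells without Prss34, and 29 had Cpa3, while none had Cma1 or Gzmb. Of 19 thinned cells with Cma1, 16 had Cpa3 (84.2%), 7 Mcpt8 and 6 Gzmb, and none had Prss34. Seen from the other side, 16.2% of the 204 Mcpt8-positive and 16.8% of the 173 Cpa3-positive thinned cells had Prss34, so these genes were mostly found without it. The interval over the 43 treats copies of 1 barcode as separate cells, so it is too narrow. With copied cells left out, 17 of 21 thinned Prss34-positive cells had Mcpt8 (81.0%, 95% exact interval 58.1 to 94.6%). In that setting 8 of 9 thinned Cma1-positive cells had Cpa3. No p is given because cells of 1 library are not replicates, and intervals cover counting error only.

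Mcpt8 had a further source outside the basophil set. Of the cells with 10 or more Mcpt8 UMIs, 18 had no Prss34, and 14 and 2 of these were from control replicates 1 and 2 and 1 each from the knockout replicates. They held 11 to 33 Mcpt8 UMIs with a median of 15, 1 Cpa3 UMI in all, and neither Cma1 nor Gzmb. The neutrophil granule genes were high in them, with 7276 CPM of Prtn3, 5476 of Mpo, 3750 of Elane and 1818 of Ctsg. Fcer1a and Ms4a2 were each found in 1 of the 18. Hdc was found in 8, at 58.0 CPM against 13.1 in all cells outside both rich sets. Gata2 (27.5 against 69.7) and Slc18a2 (18.3 against 34.1) were each found in 3. In clusters with neutrophil markers (N-like), 2.67% of 4538 cells had a Mcpt8 UMI after thinning, against 0.759% of 395 cells in lymphoid clusters (L-like), which should lack it. Median depths before thinning were 6656.5 and 1310 UMIs. With copied cells left out the shares were 2.40% and 0.314%. The N-like clusters also held Prss34-rich cells (8 and 4 of the 22), and no share without them is given.

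With the Prss34-rich and Cma1-rich cells set aside, Mcpt8 stood at 14.9 and 9.92 CPM in the control and at 7.59 and 7.98 in the knockout libraries, so the order of the groups turned. The rich cells held 62.7% and 80.2% of the Mcpt8 UMIs of knockout replicates 1 and 2, against 4.46% and 0% in the control. N-like cells were 2817 of the other 7826 and 248 of 1200 control cells, and 277 of 1584 and 274 of 3400 knockout cells. Within the N-like cells Mcpt8 stood at 23.4 and 20.6 in the control and 22.8 and 34.2 in the knockout libraries, and these ranges overlapped. Cpa3 outside the rich cells stood at 6.63 and 8.01 in the control against 10.5 and 8.64 in the knockout libraries, closer together but without overlap. Over all cells 30.1% of genes tested had both knockout libraries above both control libraries. The share of genes without overlap outside the rich cells was not counted. Gzmb stood at 0.712 and 0.0531 against 1.17 and 0.656 and overlapped. Since the rich cells were chosen by member counts, these values carry no test.

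**Figure D4:**
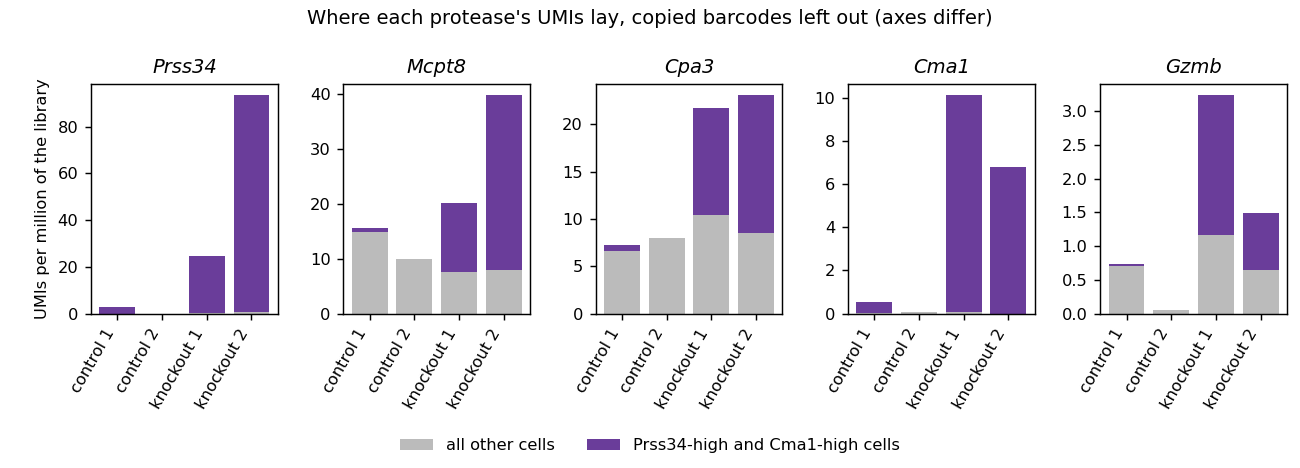
CPM of each library (copied cells left out, axes differ) split into cells rich in Prss34 or Cma1 (purple) and all others (grey), for the 5 proteases. Nearly all Prss34 and Cma1 lies in the rich cells, and the grey part of Mcpt8 is larger in both control libraries (14.9 and 9.92) than in the knockout libraries (7.59 and 7.98).

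A further set of cells was defined by 5 markers outside the members, picked after the values were seen. It held nearly all Prss34 and Cma1 UMIs. Cells with at least 3 of Ms4a2, Fcer1a, Cyp11a1, Il1rl1 and Hdc were 66 of 14041 (0.470%). These genes were picked from the list of 14 basophil and mast cell markers, and the rest of the list was not used. They held 99.8% of all Prss34, 97.7% of Cma1, 74.3% of Gzmb, 57.0% of Mcpt8 and 55.0% of Cpa3 UMIs. By library they were 0.140% and 0.25% of control and 0.881% and 1.11% of knockout cells. Cells were not thinned for this count, and detection rises with depth. Cells with none of the 5 markers had median UMIs of 5855 and 12454 in the control and 16614 and 13978.5 in the knockout libraries. The part of depth in these shares was not tested. The genes and the rule were chosen after the values were seen, so the overlap with the rich cells is not an independent check. Other choices from the list were not tested. Of the markers, 111 cells had 2 and 25 had exactly 3.

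The 20 clusters, made with the members removed, did not separate these cells. None took the name of basophil or mast cells, and the 14 listed markers stood highest in a cluster led by Pf4, Gp1bb and Sdpr, genes of megakaryocytes, with 7 markers at least 2-fold up and a mean log2 fold of 1.01. The 22 Prss34-rich cells lay in the Pf4 cluster (9), in 2 N-like clusters led by Elane (8 and 4) and in an L-like cluster (1). The 10 Cma1-rich cells were spread over 6 clusters with at most 3 in any. With copied cells left out before clustering, 12 of the 22 came together in a cluster of 171 cells led by Cd74, H2-Aa and Ccl5, which held 73.1% of the Prss34 UMIs.

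**Figure D5:**
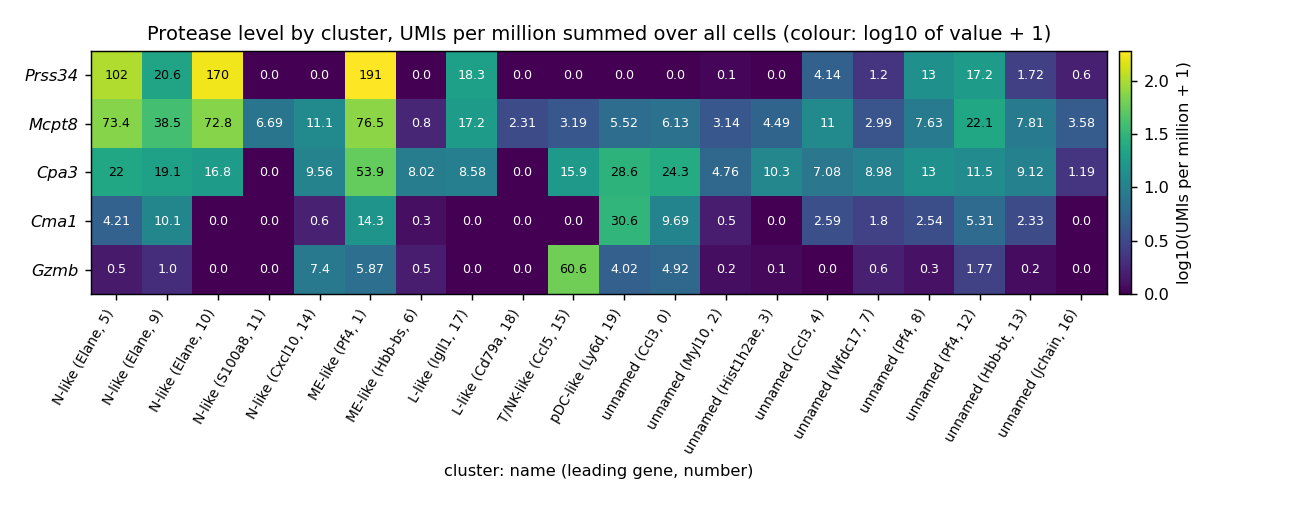
CPM of each protease (rows) summed over all cells of each of 20 clusters (columns, with class, leading gene and number), coloured by log10 of the value plus 1. Prss34 and Mcpt8 peak in the same clusters, Cma1 in the pDC-like and Pf4 clusters and Gzmb in the T/NK-like cluster.

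Levels by class are given as means of the 4 libraries, each weighted equally, since both the levels and the share of each class differed between libraries. Prss34 stood at 173 ± 256 CPM (SD, n = 4) in N-like cells, 89.6 ± 163 in megakaryocyte and erythrocyte-like (ME-like) cells and 11.7 ± 14.1 in L-like cells, where it was 4.61 without copied cells. It was listed at 0 in T/NK-like and plasmacytoid dendritic-like (pDC-like) cells. Mcpt8 stood at 83.5 ± 82.8 in N-like and 39.2 ± 57.5 in ME-like cells, 13.5 ± 11.8 in L-like and 8.72 ± 7.04 in pDC-like cells. With UMIs pooled over the libraries the leading order turned, with Prss34 at 142 in ME-like and 76.8 in N-like cells and Mcpt8 at 57.3 and 50.4. With copied cells and cells rich in Prss34 or Cma1 left out, Mcpt8 in ME-like cells stood at 1.33 and 4.83 in the control. The knockout libraries then had 0 and 1.46. N-like cells in that setting had 23.4 and 20.6 in the control and 22.8 and 34.2 in the knockout libraries. Cpa3 ran from 41.0 ± 23.8 in ME-like and 31.9 ± 30.3 in N-like to 15.8 ± 25.2 in pDC-like, 14.2 ± 21.6 in T/NK-like and 2.76 ± 4.27 in L-like cells, and pooling put pDC-like (28.6) before N-like cells (17.7). Cma1 stood at 16.5 ± 33.0 in pDC-like cells, all of it from 1 cell, 13.3 ± 26.5 in ME-like and 11.4 ± 11.7 in N-like cells, and 0 in L-like and T/NK-like cells. Gzmb stood at 65.1 ± 64.0 in T/NK-like cells, of which there were 63, against 4.90 ± 7.03 in ME-like, 2.26 ± 3.06 in pDC-like and 1.20 ± 1.36 in N-like cells. For Prss34 and Mcpt8 the SD was about as large as the mean or larger in the leading classes. Of the UMIs of all libraries, the N-like class held 61.8% of Prss34 and 61.9% of Mcpt8, while 38.2% of Cpa3 UMIs lay in clusters without a lineage name. Since few cells carried most Prss34 and Cma1, and most Mcpt8 of the ME-like class, neighbouring classes in these orders are not shown to differ.

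Over the 20 clusters, the gene whose log2 level was most like that of Prss34 was Mcpt8 (Pearson r = 0.942), ahead of Trappc3 (0.731). Mcpt8 was in turn most like Prss34, and its correlation with Mapkapk2 was 0.710. Cma1 was most like Cpa3 (0.713) and then Cd300c (0.669), while Cpa3 was closest to Tagln2 (0.721). Gzmb was most like the T and NK cell genes Ccl5 (0.896) and Klrk1 (0.895). Prss34 and Cma1 had a correlation of only 0.238. The clusters share libraries and depth and some hold only a few UMIs of a member, so these values describe the pattern over 20 points and carry no p.

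In the Pf4 cluster, which held 555 and 100 control and 124 and 288 knockout cells, Prss34 had 0 and 5 UMIs in the control and 69 and 2167 in the knockout libraries. Mcpt8 had 4 and 7 against 84 and 805 UMIs, and Cpa3 had 54 and 37 against 207 and 336. Summed over the cluster, rich cells included, Cpa3 rose by a log2 difference of 1.71 (adjusted p = 0.00894 by edgeR). The ME-like class takes in this cluster. Across that class, without copied cells and cells rich in Prss34 or Cma1, Cpa3 stood at 12.8 and 31.4 CPM in the control. The knockout libraries had 10.8 and 15.04 CPM, so the groups overlapped. Whether Cpa3 rose in the cluster itself without the rich cells was not tested. Prss34 and Mcpt8 passed the filter on low counts only through the knockout libraries, so their fitted log2 differences of 7.56 (adjusted p = 0.0124) and 5.24 (adjusted p = 0.00391 by edgeR) are given as a description and not as a result. In this cluster 1.64% of 10057 genes changed and 0.428% were higher in the knockout. The 9 Prss34-rich cells of the cluster were all from knockout libraries, 8 of them from replicate 2, while both control cells rich in Prss34 lay in the N-like clusters led by Elane. In knockout replicate 1, the Prss34-rich cell held 66 of the cluster's 69 Prss34, 83 of its 84 Mcpt8 and 83 of its 207 Cpa3 UMIs. A Cma1-rich cell of that library held another 94 Cpa3 UMIs. The 8 from knockout replicate 2 each held 70 to 587 Prss34, 22 to 237 Mcpt8 and 6 to 54 Cpa3 UMIs. Levels in the cluster were not tested without the rich cells, so a change in its other cells is not shown. By DESeq2 Prss34, Mcpt8 and Cpa3 missed the threshold there (adjusted p = 0.432, 0.0926 and 0.321). The 168 Cma1 UMIs of the cluster were all from knockout replicate 1, and Cma1 and Gzmb did not pass the filter on low counts.

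Outside the Pf4 cluster, Cpa3 (log2 difference 1.13, adjusted p = 0.0265 by edgeR) and Cma1 (2.55, adjusted p = 0.0272) rose, and 3.1% of 13734 genes changed there, 0.983% being higher in the knockout. Prss34 (2.37, adjusted p = 0.0803), Mcpt8 (0.53, adjusted p = 0.152) and Gzmb (1.602, adjusted p = 0.162) missed the threshold. The difference of the knockout effect between the cluster and the rest was tested as an interaction, in which 3.99% of 12813 genes passed. Its value was above 0 and passed the threshold for Mcpt8 (log2 difference of effects 4.79, adjusted p = 5.7e-30 by edgeR), Prss34 (4.68, adjusted p = 6.5e-13) and Cma1 (9.02, adjusted p = 0.0470). Each had few or no control UMIs in the cluster, and the placing of the rich cells bears on these values too. They are therefore given as a description and not as a result. With copied cells left out, Mcpt8 still passed (4.96, adjusted p = 3.2e-05), Prss34 and Cma1 did not (10.80, adjusted p = 0.207, and 7.85, adjusted p = 0.745), and 2.44% of 12509 genes passed. Cpa3 (0.54, adjusted p = 0.111) and Gzmb (1.55, adjusted p = 0.392) missed the threshold. The share of cells in the Pf4 cluster was 6.03% and 1.47% in the control and 2.61% and 6.80% in the knockout libraries (exact permutation p = 0.667, two-sided, where the smallest p that 2 against 2 libraries allow is 0.333).

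For the share of cells with a UMI of each member, 2 against 2 libraries allow no p under 0.333, so no difference could pass the threshold. After thinning, the mean share was 0.210 percentage points higher in the knockout for Prss34, 0.231 for Cpa3, 0.0934 for Cma1 and 0.0948 for Gzmb, and for Mcpt8 the difference was -0.0267. The exact permutation p was 0.333 for Cpa3, Cma1 and Gzmb and 0.667 for Prss34 and Mcpt8 (two-sided, 0.556 and 0.667 after Benjamini-Hochberg adjustment over the 5). With copied cells left out the differences were 0.327 for Prss34, 0.140 for Mcpt8, 0.426 for Cpa3, 0.164 for Cma1 and 0.136 for Gzmb, and the p for Prss34 became 0.333. Without thinning, the differences were 0.324 for Prss34, 1.20 for Mcpt8, 2.78 for Cpa3, 0.0860 for Cma1 and 0.345 for Gzmb.

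Among the neighbours of the members, only 1 of 12 other chymase locus genes passed the filter on low counts. This was Ctsg, which codes for the neutrophil protease cathepsin G and fell in the knockout, from 1193 and 867 to 393 and 267 CPM (log2 difference -1.67, adjusted p = 0.0222 by edgeR), while Cma1 rose in the same locus. Of 9 tryptase locus genes other than Prss34, only Tpsb2 was tested, and it had 1 and 3 UMIs in the control and 9 and 17 in the knockout libraries (2.44, adjusted p = 0.145). In the Prss34-rich cells Ctsg stood at 2042 CPM, next to 1906 in N-like cells, and in the Cma1-rich cells at 875.

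The genes that serve the granule and the IgE receptor did not move as one. Of 12 genes of granule storage and protease activation, none rose and 2 fell (over all genes, 0.91% rose and 2.09% fell), with a median log2 difference of -0.05 against -0.01 over all genes tested. The 2 were Cst7, which codes for the cathepsin inhibitor cystatin F (-1.17, adjusted p = 0.0461 by edgeR), and Serpinb1a, an inhibitor of neutrophil proteases (-0.77, adjusted p = 0.0339). Srgn, whose product holds the proteases, had a difference of -0.21 (adjusted p = 0.441). Of the 3 IgE receptor genes, 1 rose and 1 fell, against the same 0.91% and 2.09%. Ms4a2, the beta chain, rose (1.28, adjusted p = 0.0325), Fcer1g, the gamma chain shared with other Fc receptors, fell (-1.31, adjusted p = 0.0128), and Fcer1a, the chain that binds IgE, had 1.16 (adjusted p = 0.188).

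Of 9 cytokine receptor genes, Csf2ra, a chain of the GM-CSF receptor, fell (-1.08, adjusted p = 0.0153 by edgeR) and the other 8 did not pass (over all genes, 2.09% fell), with Il1rl1 at 1.21 (adjusted p = 0.0516). None of 14 transcription factor genes passed, which is near the 3.0% of all genes and no result about the list, and Gata2 had 0.41 (adjusted p = 0.0786) and Bhlhe41 2.85 (adjusted p = 0.0560). Of the 14 basophil and mast cell markers, 10 were tested and only Ms4a2 passed (over all genes, 0.91% rose), with a median of 1.17 over the 10. All 4 neutrophil granule protease genes fell, against 2.09% of all genes, Elane by 3.94 (adjusted p = 0.0140), Prtn3 by 2.25 (adjusted p = 0.0324), Mpo by 2.14 (adjusted p = 0.0335) and Ctsg as given above, on the log2 scale. Neutrophil markers thus moved with the genotype beside the proteases, and their part in the values of Mcpt8 over all cells was not tested. With the 2% of cells with the most UMIs left out, none of these list calls remained.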

How the data were processed

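Sorted LSK cells of 2 control and 2 Nup358 knockout samples were counted by 10x 3′ chemistry. The authors aligned reads to GRCm38 and counted UMIs with Cell Ranger (version 3.1 and build mm10 per the submitters' processing notes), and the deposited files hold raw counts per gene and cell. Groups follow the labels. Barcodes with under 200 genes or over 10% mitochondrial UMIs were removed, leaving 24973 of 25242. CPM are UMIs summed per library and scaled to a total of 1000000 over the same cells.

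The counts summed per library were tested with R 4.3.3 and edgeR 4.0.16 (filterByExpr, TMM, quasi-likelihood test, Benjamini-Hochberg over all genes tested, threshold 0.05), with DESeq2 1.42.0 as an alternative. The test was run on simulated data first. Clusters (scanpy 1.11.5, leidenalg 0.10.2) used 2000 variable genes without the 5 members, 10 components, 15 neighbours and resolution 1. A class name needed at least 3 markers at 2-fold (CPM plus 5), a mean log2 fold of at least 2 and no more markers of another class among the top 10 genes. Since no cluster took the basophil or mast cell name, the cluster highest for those markers stood in for it, by the rule set for that case. No doublet caller was run, and an alternative left out the 2% of cells with the most UMIs. Shares with 95% exact binomial intervals and limits for a count of 0 (3 counts) cover counting error only. The members and gene lists were chosen with earlier results of these data known. Named genes are the members, the listed pathway and marker genes, locus neighbours and the 5 genes most like each member over clusters, of which 1 is not reported here. The sets of cells rich in Prss34, Cma1 or Mcpt8 (10 or more UMIs), the split at 12000 UMIs, the 20-UMI threshold and the marker-defined set were chosen after seeing the data.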

Additional observations from a re-analysis of the deposited data

Results flagged for a closer look

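By the interaction test, the fitted knockout effect on Mcpt8, Prss34 and Cma1 differed between the Pf4 cluster and all other cells. This is given as a description and not as a result. The log2 difference of effects was 4.79 for Mcpt8, 4.68 for Prss34 and 9.02 for Cma1. The value for Cma1 rests on 168 UMIs of knockout replicate 1, since the other 3 libraries had no Cma1 UMI in the cluster. Without that library the difference for Cma1 could not be estimated (SE 12269.9). Without copied cells Mcpt8 passed again, while Prss34 and Cma1 missed the threshold. The 2 Pf4-cluster cells rich in Cma1 were both from knockout replicate 1, and 8 of the 9 rich in Prss34 were from knockout replicate 2. Both control cells rich in Prss34 lay in other clusters, and Prss34 and Mcpt8 passed the filter on low counts in the cluster only through the knockout libraries. The interaction was not tested without the rich cells, so a difference of effects in the other cells is not shown.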

How the results depend on the processing

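Over all LSK cells, 415 genes changed in the reported fit, against 961 by DESeq2, 2076 without the filter on low counts, 705 with library depth as a block, 53 without the cells with the most UMIs and 324 to 2353 when 1 library was left out. In the Pf4 cluster the 165 genes became 52 by DESeq2, 445 without the filter, 399 with the depth block and 52 to 741 when 1 library was left out. Outside it the 426 genes became 903 by DESeq2, 2014 without the filter and 277 to 2764 when 1 library was left out. The 511 genes of the interaction became 305 without copied cells and 145 to 743 when 1 library was left out.

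With the replicate block, 980 genes changed over all cells, 98 in the Pf4 cluster and 1020 outside it. The labels do not pair the replicate numbers, and the differences between same-numbered replicates had a correlation of -0.04 over 13844 genes, so no pairing is shown. With 1 library left out, a lone library is assumed to vary like the other genotype's pair.

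The share of cells in the cluster highest for basophil and mast cell markers differed by 0.954 points. The difference was -7.34 at resolution 0.5, -1.66 after thinning and between -10.4 and 4.38 when 1 library was left out. That cluster was not the same one throughout, so these values do not follow 1 group of cells. It was led by Hbb-bs after thinning and without control replicate 1. It held 34.7% of Prss34 UMIs in the reported clustering and 2.87% after thinning. The Mcpt8 detection difference of -0.0267 turned to 1.20 without thinning, 0.0285 at 500 UMIs, 0.140 without copied cells, and -0.103 to 0.0496 when 1 library was left out.

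The cluster holding the most UMIs of a member had 49.6% of Prss34, 32.3% of Mcpt8, 23.5% of Cpa3 and 35.0% of Cma1. With the members kept for clustering these were 81.8% for Prss34, 58.6% for Mcpt8 and 37.7% for Cpa3. Cpa3 had 32.9% at resolution 0.5 and 12.9% after thinning, and Cma1 had 56.1% at resolution 2. With 1 library left out, Prss34 had 42.03 to 94.998%, Mcpt8 34.3 to 81.5%, Cpa3 23.5 to 58.5% and Cma1 26.5 to 71.2%. The interaction ran from -3.04 (without knockout replicate 1) to 10.95 for Cma1 and from -0.34 (without control replicate 1) to 2.52 for Gzmb. The cause of these changes was not tested.

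Few cells limit the rest. Over all cells, all 5 members kept a higher knockout level in each of the 11 alternatives. These refit the same libraries or parts of them, and are no independent checks. In those libraries, 30.1% of all genes tested lay higher in both knockout than in both control libraries. The share of all genes that kept their direction was not counted. The 22 and 10 rich cells set the precision of Prss34 and Cma1, and control replicate 2 kept only 1200 cells without copies.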
